A study of Mus musculus with 17 samples.

Results

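The 35 genes described here belong to the programme of the transcription factor ATF4 in the mouse. They are regulators of the integrated stress response, genes of amino acid supply and 12 of the cytosolic aminoacyl-tRNA synthetases, and they were taken by gene symbol from the 21982 genes of the deposited count table. Each of the 35 symbols was found. For 33 of them the counts passed the low-count filter that kept 12486 genes for testing. The hormone gene Gdf15 and the proline enzyme Pycr1 failed it, with 60 and 97 counts summed over all libraries.

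Messenger RNA was sequenced from brown adipose tissue, the fat depot that burns fuel for heat, of 17 mice on a C57BL/6 background, with 1 library per mouse. The mice were wild types or littermates homozygous for a Nocturnin knockout (Noct-/-). Noct encodes a rhythmically expressed phosphatase that acts on NADP(H), and the knockout is not labelled as restricted to a tissue. Each mouse was housed alone without food for 4 h, either at 22 °C or at 6 °C. There were 4 wild types at 22 °C (1 male), 5 wild types at 6 °C (1 male), 4 knockouts at 22 °C (3 males) and 4 knockouts at 6 °C (3 males). Ages are labelled 11.14 to 23.57 without a unit, and the series text gives 10 to 20 weeks. Animals at both temperatures were without food, so no fed group was compared.

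ATF4 is made when kinases that sense stress phosphorylate the initiation factor eIF2, which lowers translation in general and favours the Atf4 mRNA. The kinases respond to missing amino acids, unfolded protein in the endoplasmic reticulum, haem shortage, mitochondrial trouble or double-stranded RNA. ATF4 then pairs with C/EBP proteins and switches on genes that import amino acids, make them and load them onto tRNAs, together with factors such as PPP1R15A and TRIB3 that damp the response. In brown fat the pathway is best known from mice with mitochondrial defects, in which it drives the hormones FGF21 and GDF15. Messenger RNA levels do not measure eIF2 phosphorylation or ATF4 protein.

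A short element that ATF4 and C/EBP proteins bind together, TGATGNAA or its reverse complement TTNCATCA, was searched on both strands of the RefSeq promoters of GRCm38.p6, from 250 bases before to 50 bases after each gene's start. Of the 35 genes, 29 were in the promoter table, and 11 of these (37.9%) held the element, against 4.51% of the 27025 genes in the table. Counted by promoter, 3.97% of 32851 promoters held it. The 11 were Trib3, Chac1, Asns, Slc7a11, Pycr1, Nupr1, Aars, Gars, Iars, Tars and Yars. Stretches of 9 of these promoters follow, 5′ to 3′ on the gene's strand with the element in capitals, because they show that stress genes and synthetase genes carry the same letters. A match of letters is no evidence of binding in this tissue.
Asns: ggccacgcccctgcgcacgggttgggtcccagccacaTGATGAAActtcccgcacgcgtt
Chac1: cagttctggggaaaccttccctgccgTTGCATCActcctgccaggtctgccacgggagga
Slc7a11: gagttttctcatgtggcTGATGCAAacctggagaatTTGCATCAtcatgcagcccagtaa
Trib3: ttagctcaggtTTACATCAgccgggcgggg
Aars: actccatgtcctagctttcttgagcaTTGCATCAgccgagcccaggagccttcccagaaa
Gars: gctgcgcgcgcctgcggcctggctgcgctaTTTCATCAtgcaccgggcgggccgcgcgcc
Tars: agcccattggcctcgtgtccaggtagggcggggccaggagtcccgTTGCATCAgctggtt
Iars: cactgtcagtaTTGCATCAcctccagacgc
Yars: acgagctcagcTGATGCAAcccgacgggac

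The printed stretches lie at chr6:7693210-7693269 (Asns, minus strand), chr2:119351023-119351082 (Chac1, plus), chr3:50443637-50443696 (Slc7a11, minus), chr2:152344028-152344057 (Trib3, minus) and chr8:111033704-111033763 (Aars, plus). Those of the other synthetases lie at chr6:55037941-55038000 (Gars, plus), chr15:11399659-11399718 (Tars, minus), chr13:49682126-49682155 (Iars, plus) and chr4:129189895-129189924 (Yars, plus). The first capital stood 23 bases before the RefSeq start of Asns, 193 before that of Chac1, 112 before that of Aars, 30 before that of Gars and 15 before that of Tars. Slc7a11, the cystine transporter gene, held 2 copies, at 66 and 47 bases before its start and on opposite strands. Aars held a second copy outside the printed stretch, which began 9 bases after the start and lay on the same strand as the first. In Trib3, Iars and Yars the element began 14, 7 and 3 bases after the start.

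Library totals ran from 18410748 to 47598200 counts and the share of reads from the mitochondrial genome from 43.4 to 57.3%. Levels are given as counts relative to library size (CPM) after scaling between libraries. Noct itself was 91.5 to 176 CPM in wild types at 22 °C and 238 to 457 CPM at 6 °C, against 3.37 to 34.2 CPM and 18.2 to 27.2 CPM in knockouts. The knockouts were all below the wild types, and no library went against its genotype label. Brown fat markers such as Ucp1 were abundant in every library (summed level 10610 to 15810 CPM over 12 genes). White fat markers summed to 33.8 to 53.6 CPM at 22 °C and 17.7 to 37.1 CPM at 6 °C in wild types and to 20.5 to 49.1 CPM and 19.7 to 32.2 CPM in knockouts. Of these 7 genes 1 (Hoxc10) had no count in any library, and of the 5 tested 1 fell in the cold in each genotype. Summed skeletal muscle markers ran from 27.1 to 1311 CPM without separating the groups.

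Cold exposure was followed by higher levels of many of these genes in both genotypes. A gene is said to have risen or fallen where edgeR's quasi-likelihood test gave it a p below 0.05 after adjustment over all tested genes. In wild types 18 of the 33 tested genes rose and 0 fell, where 14.3% of all tested genes rose and 13.3% fell (27.6% in either direction). In knockouts 16 rose and 0 fell, where 11.6% of all tested genes rose and 10% fell (21.6% in either direction). At an unadjusted p below 0.05 the count of members with a lower level was 1 in wild types (Phgdh, which DESeq2 and limma called as lower) and 0 in knockouts, where neither tool called a lower member. With limma on log2(RPKM + 1), from the authors' deposited values scaled to the total count, 14 genes rose and 1 fell in wild types and 12 rose in knockouts. In that fit the median of all tested genes was -0.11 in wild types, and 22% of all wild-type calls were higher, against 51.8% in edgeR. In knockouts the share was 41.3% against 53.6%. The median log2 fold change of the 33 genes was 0.77 in wild types and 0.60 in knockouts, against -0.03 and -0.02 over all tested genes. It was 0.34 in both with limma on log2(RPKM + 1) and 0.42 and 0.39 with log2(RPKM + 0.1). Without cold wild-type replicates 1 and 3 it was 0.36 in wild types. The same 16 genes rose in both genotypes: Atf4, Ddit4, Sesn2, Ppp1r15a, Slc3a2, Slc7a1, Mthfd2, Aars, Cars, Eprs, Gars, Iars, Nars, Sars, Wars and Yars. Cebpg and Tars passed the test in wild types alone, and their difference between genotypes did not pass.

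For 15 of the 33 genes every wild type at 6 °C lay above every wild type at 22 °C, and the same count held in knockouts. Over all tested genes, 13% were separated upward in wild types and 10.8% in knockouts. Summed over the 35 genes, the level was 783 to 1031 CPM in wild types at 22 °C and 1321 to 1754 CPM at 6 °C, and 767 to 832 CPM and 1135 to 1546 CPM in knockouts. In bulk tissue, fewer cells of a type and less RNA per cell cannot be told apart. Summed brown fat markers moved with temperature too, from 10610 to 11950 CPM at 22 °C to 12680 to 15240 CPM at 6 °C in wild types, with 3 of 12 rising and 4 falling. Endothelial markers summed to 440 to 553 CPM at 22 °C and 537 to 676 CPM at 6 °C in wild types (3 of 10 rose, 2 fell), and nerve markers to 86.6 to 121 CPM and 142 to 169 CPM (1 of 7 rose, 1 fell). In knockouts the warm and cold ranges of these 3 sums overlapped. Brown fat markers summed to 10720 to 14330 CPM at 22 °C and 12560 to 15810 CPM at 6 °C. Endothelial markers summed to 512 to 551 CPM and 481 to 695 CPM, and nerve markers to 96.5 to 127 CPM and 117.5 to 174.6 CPM. The part of these cell types in the members' change was not tested.

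**Figure D1:**
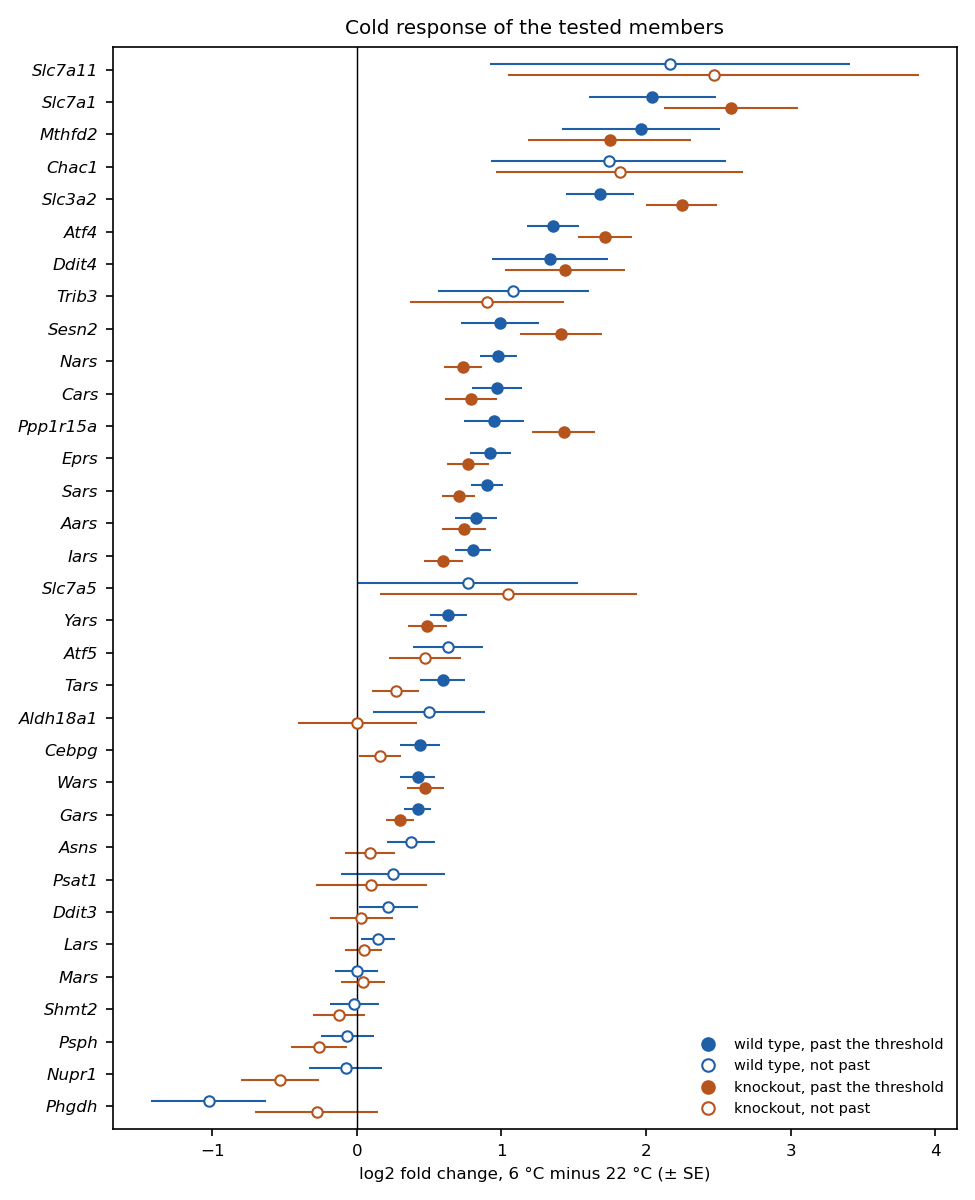
Cold response of the 33 tested genes, with the log2 fold change from 22 °C to 6 °C on the x axis and 1 gene per row, for wild types (blue) and knockouts (orange). Filled points passed the test, bars are ± 1 SE, and the filled points lie to the right of 0 in both genotypes.

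Among the regulators that passed the test, Atf4 itself had the highest log2 fold change in both genotypes. Its single-exon gene model lies at chr15:80255184-80257541 on the plus strand of GRCm38. Values are given in the order of replicate numbers, which are not stated to pair animals. In wild types Atf4 stood at 66.7, 93.4, 67.4 and 61.6 CPM at 22 °C and at 210.1, 178, 226, 137 and 162 CPM at 6 °C. In knockouts it stood at 45, 52.9, 59.4 and 39 CPM and at 164, 157, 119.8 and 204 CPM. The lowest cold library lay well above the highest warm library in both genotypes. The log2 fold change was 1.36 ± 0.18 (SE) in wild types (adjusted p = 7.2e-05) and 1.72 ± 0.19 in knockouts (adjusted p = 2.18e-05), and both calls held in every alternative fit that was run.

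Ppp1r15a encodes the phosphatase subunit that reverses eIF2 phosphorylation. Its level was 9.12, 11, 9.65 and 9.66 CPM in wild types at 22 °C and 21.5, 18.1, 21.2, 17.8 and 16.9 CPM at 6 °C. Knockouts had 8.13, 7.31, 9.09 and 3.37 CPM at 22 °C and 18.4, 18.6, 14.6 and 23.8 CPM at 6 °C. Cold and warm libraries did not overlap in either genotype, and knockout 22 °C replicate 4 was the lowest of all. Ppp1r15a rose by 0.95 ± 0.20 log2 in wild types (adjusted p = 0.00275) and by 1.43 ± 0.22 in knockouts (adjusted p = 0.000269).

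Sesn2 and Ddit4 encode inhibitors of the growth kinase complex mTORC1. Sesn2 was 10.9, 21.4, 17.4 and 15.9 CPM in wild types at 22 °C and 41.1, 27, 32, 36.1 and 25.5 CPM at 6 °C. In knockouts it was 9.56, 15.8, 15 and 6.75 CPM and 35.1, 29, 17.9 and 42.8 CPM. The groups did not overlap, although knockout 6 °C replicate 3 came near the warm animals. Sesn2 rose by 0.99 ± 0.27 log2 in wild types (adjusted p = 0.0114) and by 1.41 ± 0.28 in knockouts (adjusted p = 0.00203). The wild-type call was lost with limma on log2(RPKM + 1) and on log2(RPKM + 0.1), and the knockout call in males alone.

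Ddit4 was 1.06, 4, 2.84 and 2.46 CPM in wild types at 22 °C and 6.46, 4.49, 4.77, 11.2 and 5 CPM at 6 °C. Knockouts had 2.24, 1.8, 3.25 and 4.16 CPM and 7.95, 13.4, 4.61 and 4.66 CPM. Both pairs of groups were separated by under 1 CPM, and 1 animal in each cold group (wild-type replicate 4 and knockout replicate 2) stood far above its group. Ddit4 rose by 1.34 ± 0.40 log2 in wild types (adjusted p = 0.0207) and by 1.44 ± 0.42 in knockouts (adjusted p = 0.0198). The wild-type call was lost without 22 °C replicate 1 (adjusted p = 0.0712) or 4 (0.0521) or 6 °C replicate 4 (0.0524). The knockout call was lost without 22 °C replicate 1 (0.0581) or 2 (0.0651) or 6 °C replicate 1 (0.0513) or 2 (0.0974). It was lost too with the replicate number as a block together with sex, and in males alone.

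Cebpg encodes a C/EBP partner of ATF4. It was 80.5, 70.4, 50.8 and 56.6 CPM in wild types at 22 °C and 91.6, 84.6, 109, 82.1 and 70.3 CPM at 6 °C, and these ranges overlapped. Knockouts had 71, 69.8, 60.4 and 71.4 CPM and 79.7, 77.3, 76.5 and 71 CPM. Cebpg rose by 0.44 ± 0.14 log2 in wild types (adjusted p = 0.0257), and its value in knockouts was 0.16 ± 0.14 (adjusted p = 0.483). The wild-type call was lost without 22 °C replicate 3 (0.0888) or 4 (0.0798) or 6 °C replicate 1 (0.0513) or 3 (0.0705). It was lost too in both limma fits and in females alone. The difference between the genotypes' responses was not past the threshold (-0.28 ± 0.20, adjusted p = 1).

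Atf5, a related factor that is translated in the same way as Atf4, did not pass in either genotype. Its level was 57.2 ± 13.7 CPM (mean ± SD, n = 4) in wild types at 22 °C and 90.7 ± 14.2 CPM (n = 5) at 6 °C. The log2 value was 0.63 ± 0.24 (adjusted p = 0.0585) in wild types and 0.47 ± 0.25 (adjusted p = 0.196) in knockouts. It passed in wild types without 22 °C replicate 2 (0.88, adjusted p = 0.0148), without knockout 22 °C replicate 4 (0.0479) and without knockout 6 °C replicate 1 (0.0385) or 3 (0.024). The wild-type value passed too with DESeq2, without a sex term, with only the groups compared in the fit and in females alone. In knockouts it passed without 6 °C replicate 3 (0.68, adjusted p = 0.0468). Ddit3, which encodes the stress factor CHOP, was 6.89 ± 0.418 CPM at 22 °C and 8.25 ± 3.32 CPM at 6 °C in wild types, with a log2 value of 0.22 ± 0.20 (adjusted p = 0.46). In knockouts Ddit3 was 6.4 ± 0.956 and 6.54 ± 1.08 CPM. Its exons share 68 bases with those of Mars on the opposite strand, and the sources used here do not say whether reads were counted by strand, so reads of these 2 genes can be mixed.

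**Figure D2:**
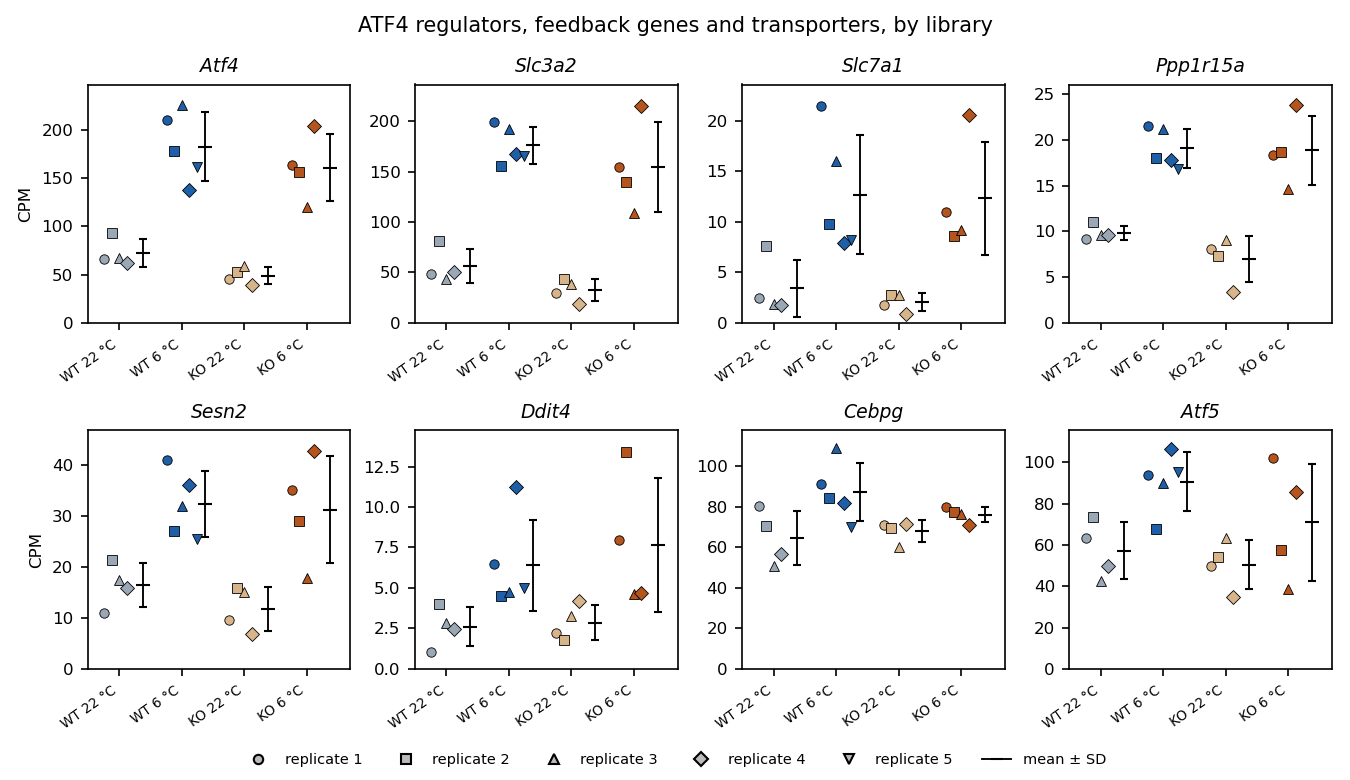
Level in CPM (y axis, linear from 0) of 6 regulators and 2 transporter genes in each library, by genotype and temperature (x axis). Symbols are replicate numbers and bars are the mean ± SD, and the cold groups lie above the warm groups without overlap in every panel except those of Cebpg and Atf5.

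Of the 4 amino acid transporter genes, 2 rose in each genotype, where 14.3% of all tested genes rose in wild types and 11.6% in knockouts. Slc3a2 encodes the heavy chain that carries several amino acid exchangers to the cell surface. In wild types it stood at 48.8, 80.9, 44 and 50.2 CPM at 22 °C and at 199, 156, 192, 167 and 166 CPM at 6 °C. In knockouts it stood at 30.04, 43.2, 38.8 and 18.7 CPM and at 155, 139.8, 109 and 215 CPM. No cold library came near a warm one, and wild-type 22 °C replicate 2 was the highest of the warm animals. Slc3a2 rose by 1.69 ± 0.24 log2, or 3.22-fold, in wild types (adjusted p = 0.000107) and by 2.25 ± 0.25, or 4.74-fold, in knockouts (adjusted p = 2.24e-05).

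Slc7a1 encodes CAT1, a carrier of arginine and lysine. Its level was 2.43, 7.62, 1.88 and 1.77 CPM in wild types at 22 °C and 21.4, 9.82, 16, 7.93 and 8.19 CPM at 6 °C. Knockouts had 1.75, 2.79, 2.71 and 0.916 CPM at 22 °C and 11, 8.62, 9.14 and 20.6 CPM at 6 °C. The groups did not overlap, but wild-type 22 °C replicate 2 (7.62 CPM) nearly reached cold replicate 4 (7.93 CPM). Slc7a1 rose by 2.04 ± 0.44 log2, or 4.12-fold, in wild types (adjusted p = 0.00275) and by 2.59 ± 0.46, or 6.02-fold, in knockouts (adjusted p = 0.000897).

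Among the transporter genes listed here, Slc7a5 and Slc7a11 encode light chains that pair with SLC3A2, and neither passed in either genotype. Any other light chain was not examined. Slc7a5, which encodes the large neutral amino acid carrier LAT1, was at most 1.81 CPM in any library, with a log2 value of 0.77 ± 0.77 in wild types (adjusted p = 0.487) and 1.05 ± 0.89 in knockouts (adjusted p = 0.448). Slc7a11, which encodes the cystine importer xCT, was at most 1.87 CPM and had 0 counts in 5 of 17 libraries. Its log2 value was 2.17 ± 1.24 (adjusted p = 0.206) in wild types and 2.47 ± 1.42 (adjusted p = 0.239) in knockouts, and it held the 2 copies of the element printed above.

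Of the 7 tested enzymes of amino acid and one-carbon synthesis, 1 rose in each genotype. That is 14.3% called, below the 27.6% of all tested genes in wild types and the 21.6% in knockouts. The enzyme gene that rose was Mthfd2, which encodes a mitochondrial folate enzyme. Its level was 1.04, 3.46, 0.968 and 0.92 CPM in wild types at 22 °C and 10.3, 2.63, 10.4, 3.87 and 2.57 CPM at 6 °C. Knockouts had 1.15, 0.706, 2.02 and 1.04 CPM and 3.84, 2.94, 2.42 and 7.22 CPM. The wild-type groups overlapped because 22 °C replicate 2 exceeded 2 cold animals, and the knockout groups did not overlap. Mthfd2 rose by 1.97 ± 0.55 log2 in wild types (adjusted p = 0.0135) and by 1.75 ± 0.56 in knockouts (adjusted p = 0.0337). The wild-type call was lost without 22 °C replicate 1 (0.0505), 3 (0.0514) or 4 (0.0516), and without 6 °C replicates 1 and 3 together (1.01, adjusted p = 0.147). The knockout call was lost without 22 °C replicate 1 (0.0633), 2 (0.0999) or 4 (0.0761) or 6 °C replicate 1 (0.0726) or 4 (0.104). It was lost too in both limma fits, with the replicate number as a block without sex, and in males alone.

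The other enzyme genes did not pass in either genotype. Asns, which encodes asparagine synthetase, was 52.6 ± 6.12 CPM (n = 4) at 22 °C and 68.3 ± 17.1 CPM (n = 5) at 6 °C in wild types, with a log2 value of 0.38 ± 0.17 (adjusted p = 0.102). In knockouts it was 53.4 ± 1.87 and 56.9 ± 12 CPM, with 0.092 ± 0.17 (adjusted p = 0.771). The serine pathway is encoded by Phgdh, Psat1 and Psph, and its products feed Shmt2. Psat1, Psph and Shmt2 had log2 values between -0.066 and 0.25 in wild types and between -0.26 and 0.10 in knockouts. Phgdh, the first enzyme of the pathway, was 1.57, 1.94, 1.78 and 1.22 CPM at 22 °C and 0.963, 1.3, 0.155, 0.39 and 1.19 CPM at 6 °C in wild types. That is a log2 value of -1.02 ± 0.40 (adjusted p = 0.0623), and the groups overlapped. Phgdh passed as lower with DESeq2 (adjusted p = 0.0328), with limma on log2(RPKM + 1) (0.00953) and on log2(RPKM + 0.1) (0.0179), with the replicate number as a block (0.0323 with sex, 0.0462 without) and without wild-type 6 °C replicate 5 (0.032). In knockouts its value was -0.28 ± 0.42 (adjusted p = 0.706). Aldh18a1, the entry enzyme of proline synthesis, had 0.50 ± 0.39 in wild types (adjusted p = 0.365) and 0.0046 in knockouts (adjusted p = 0.996).

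Aminoacyl-tRNA synthetases load each amino acid onto its tRNA. Of the 12 listed, 10 rose in wild types and 9 in knockouts, where 14.3% and 11.6% of all tested genes rose. The median log2 fold changes over the 12 were 0.72 and 0.54. Their changes were smaller than those of the 2 transporter genes that rose, between 1.34-fold and 1.97-fold among the called genes in wild types and between 1.23-fold and 1.73-fold in knockouts. Summed over the 12 genes, the level was 434 to 556 CPM at 22 °C and 675 to 896 CPM at 6 °C in wild types, and 456 to 505 CPM and 665 to 744 CPM in knockouts.

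Nars, the asparagine enzyme, was 48.9, 63.5, 49.2 and 42.6 CPM in wild types at 22 °C and 112, 95.6, 122, 86.4 and 81.6 CPM at 6 °C. Knockouts had 48.6, 48.6, 53.2 and 58 CPM at 22 °C and 84.3, 85.7, 88.3 and 87.9 CPM at 6 °C. The 4 cold knockouts lay within 4 CPM of each other and far above the warm ones. Nars rose by 0.98 ± 0.13 log2 in wild types (adjusted p = 6.27e-05) and by 0.73 ± 0.13 in knockouts (adjusted p = 0.000895). Sars, the serine enzyme, was 30.6, 44, 33.4 and 32.5 CPM in wild types at 22 °C and 65.8, 63.4, 71, 59.2 and 65.6 CPM at 6 °C. In knockouts the values were 30.6, 31.2, 38.7 and 34.8 CPM and 59.6, 52.9, 54.2 and 53 CPM. Again no cold library reached a warm one. Sars rose by 0.90 ± 0.11 log2 in wild types (adjusted p = 3.94e-05) and by 0.71 ± 0.11 in knockouts (adjusted p = 0.000402).

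Eprs, which loads both glutamate and proline, was 74, 108, 90.9 and 82.2 CPM in wild types at 22 °C and 193, 149.9, 214, 133 and 143 CPM at 6 °C. Knockouts had 88.5, 89.5, 83.8 and 103 CPM and 140.2, 163, 161 and 159.7 CPM. Cold and warm groups were apart, with cold wild-type replicates 1 and 3 highest of all. Eprs rose by 0.92 ± 0.14 log2 (adjusted p = 0.000222) in wild types and by 0.77 ± 0.15 (adjusted p = 0.00136) in knockouts. Iars, the isoleucine enzyme, was 28, 35.9, 25.6 and 25.4 CPM in wild types at 22 °C and 56.8, 45.2, 61.2, 44.3 and 41.5 CPM at 6 °C. Warm knockouts had 27.3, 27.7, 28.8 and 30.5 CPM and cold knockouts 43.1, 39.7, 46.2 and 44.2 CPM. Cold wild-type replicates 1 and 3 were again the highest, and the groups were apart. Iars rose by 0.80 ± 0.13 log2 (adjusted p = 0.000277) and by 0.60 ± 0.13 (adjusted p = 0.00381).

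Aars, the alanine enzyme, was 46.8, 68, 50.7 and 47.5 CPM in wild types at 22 °C and 113, 84.8, 101.1, 91 and 79.7 CPM at 6 °C. Warm knockouts had 48.3, 49.9, 54.7 and 49 CPM and cold knockouts 94.9, 78.2, 64.9 and 99.3 CPM. The groups were apart in both genotypes. Aars rose by 0.82 ± 0.15 log2 in wild types (adjusted p = 0.000674) and by 0.74 ± 0.15 in knockouts (adjusted p = 0.00228). In the GENCODE vM21 annotation its exons share 1326 bases (14.3%) with Exosc6 on the same strand, and the sources used here do not say how such reads were counted. Cars, the cysteine enzyme, was 10.4, 11.7, 8.35 and 8.25 CPM in wild types at 22 °C and 21.9, 17.3, 23.6, 16.6 and 15.8 CPM at 6 °C. Warm knockouts had 9.33, 8.69, 9.82 and 8.79 CPM and cold knockouts 17.7, 13.7, 11.6 and 20.4 CPM. No cold library overlapped the warm ones. Cars rose by 0.97 ± 0.17 log2 in wild types (adjusted p = 0.000662) and by 0.79 ± 0.18 in knockouts (adjusted p = 0.00462). The knockout calls of Aars and Cars were lost in males alone.

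Yars, Gars and Wars, the tyrosine, glycine and tryptophan enzymes, rose by less. Yars was 19.6, 22.3, 18.3 and 17.9 CPM in wild types at 22 °C and 32.2, 26.7, 36.8, 28.2 and 27.9 CPM at 6 °C, and 19.7, 16.3, 20.8 and 19.9 CPM and 27.8, 24.5, 22.6 and 32.5 CPM in knockouts. It rose by 0.63 ± 0.13 log2 in wild types (adjusted p = 0.00173) and by 0.49 ± 0.13 in knockouts (adjusted p = 0.0146), with no overlap of groups. The knockout call of Yars was lost in both limma fits, with only the groups compared and in males alone. Gars also makes the mitochondrial glycine enzyme, and it was 92.8, 96.5, 81.3 and 86 CPM in wild types at 22 °C and 114, 109, 139, 122 and 111 CPM at 6 °C. Knockouts had 89.7, 90.4, 90.8 and 99.5 CPM and 108, 114, 116 and 118 CPM, again without overlap. Gars rose by 0.42 ± 0.092 log2 in wild types (adjusted p = 0.00288) and by 0.30 ± 0.10 in knockouts (adjusted p = 0.032). The knockout call of Gars was lost without 22 °C replicate 1 (0.055), 2 (0.0704) or 3 (0.056) or 6 °C replicate 3 (0.0507), and with the replicate number as a block (0.0719 with sex, 0.0564 without). It was lost too without a low-count filter, in both limma fits, with only the groups compared and in males alone. The wild-type call of Gars was lost in both limma fits.

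Wars was 22.3, 26.1, 22.8 and 25.7 CPM in wild types at 22 °C and 30.3, 30.6, 33.1, 34 and 35.2 CPM at 6 °C. Knockouts had 22.7, 22.3, 25.4 and 20.6 CPM and 38.1, 26.7, 25.3 and 36.4 CPM, where 22 °C replicate 3 and 6 °C replicate 3 crossed by a margin of under 0.1 CPM. Wars rose by 0.42 ± 0.12 log2 in wild types (adjusted p = 0.0148) and by 0.48 ± 0.13 in knockouts (adjusted p = 0.0124). Its wild-type call was lost without 22 °C replicate 1 (0.0538) or 3 (0.052), and its knockout call without 6 °C replicate 1 (0.0507). The wild-type call of Wars was lost too in both limma fits and with the replicate block and sex. Its knockout call was lost too in both limma fits, with only the groups compared and in males alone. Tars, the threonine enzyme, was 21.6, 27.6, 23.7 and 21.4 CPM in wild types at 22 °C and 42.3, 28.4, 44.8, 33.9 and 27.6 CPM at 6 °C, where the groups touched at 27.6 CPM. Knockouts had 22.4, 24.4, 25.1 and 33.9 CPM and 30.6, 28, 34.2 and 34.5 CPM. Tars rose by 0.59 ± 0.16 log2 in wild types (adjusted p = 0.00991), with 0.27 ± 0.16 in knockouts (adjusted p = 0.269) and a difference of -0.32 ± 0.23 (adjusted p = 1). Lars and Mars, the leucine and methionine enzymes, had log2 values of 0.15 ± 0.12 and -0.0011 ± 0.15 in wild types and 0.047 ± 0.13 and 0.043 ± 0.16 in knockouts, and neither passed.

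**Figure D3:**
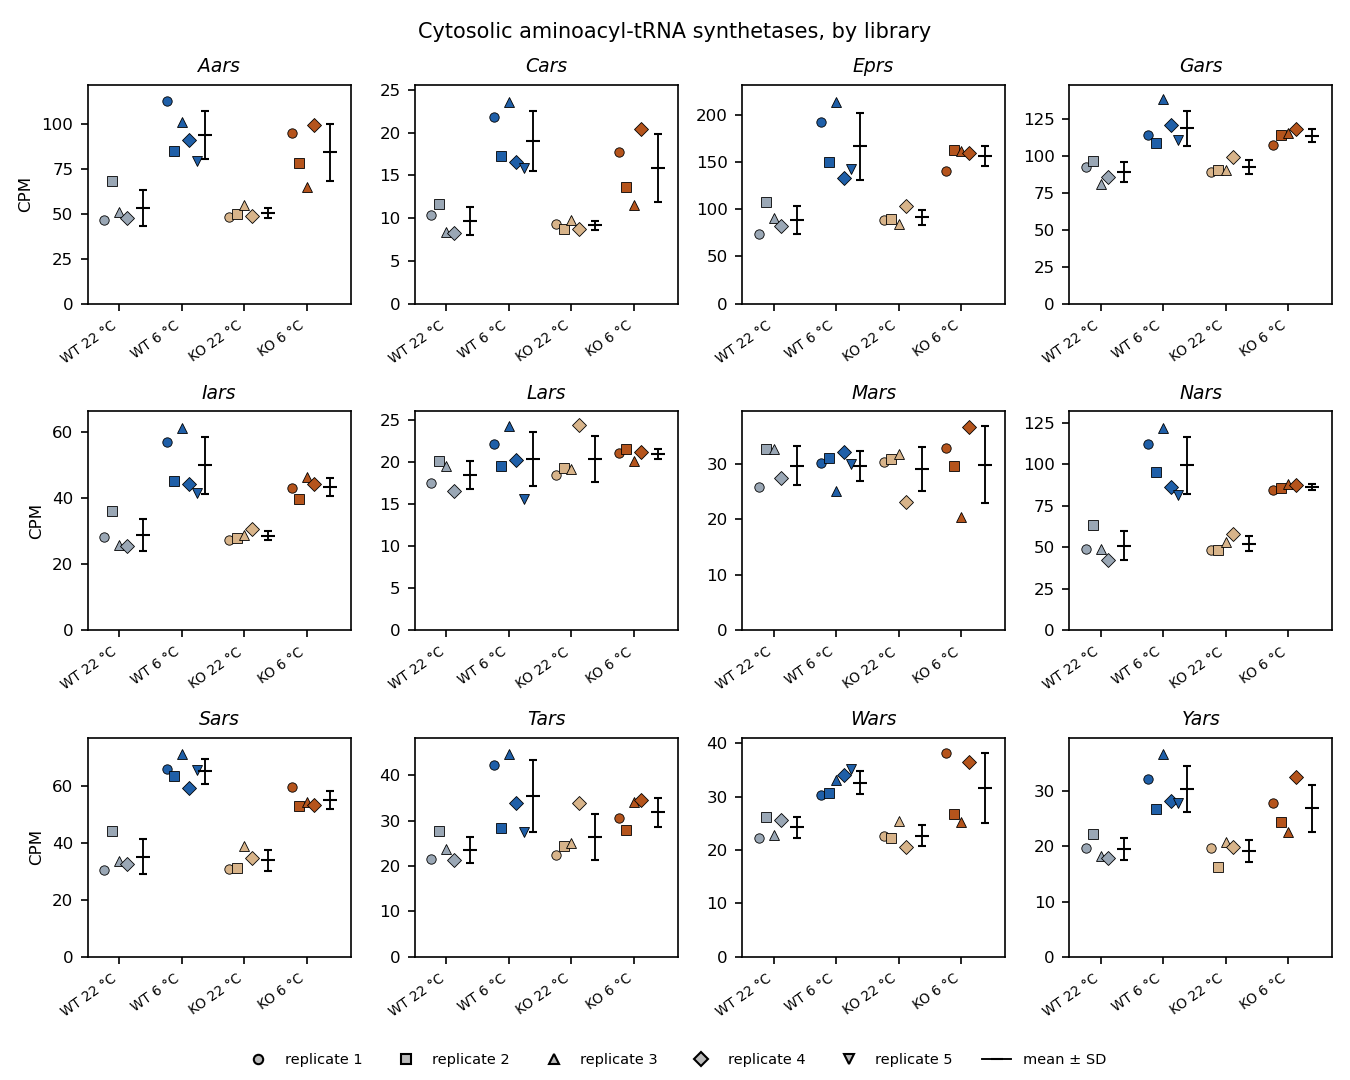
Level in CPM (y axis, linear from 0) of the 12 listed synthetase genes in each library, by genotype and temperature (x axis). Symbols are replicate numbers and bars are the mean ± SD, and the cold groups stand above the warm groups in most panels, least so for Lars and Mars.

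The remaining synthetases were taken as a list of 8 further cytosolic synthetase genes and the 3 genes of their scaffold. In that list 1 of 11 rose in each genotype, Rars, the arginine enzyme, by 0.53 ± 0.12 log2 in wild types (adjusted p = 0.00316) and 0.43 ± 0.12 in knockouts (adjusted p = 0.0192). The median of the 11 was 0.11 in wild types and 0.14 in knockouts. Of the 17 synthetases that work only in mitochondria, 2 rose and 2 fell in wild types, and 1 rose and 2 fell in knockouts, with medians of -0.09 and -0.19. These are 23.5% and 17.6% called, near the 27.6% and 21.6% of all tested genes, while the cytosolic list had 9.09% called in each genotype. Cars2 rose in both genotypes (1.16 ± 0.21 and 1.22 ± 0.22, adjusted p = 0.000717 and 0.00089), and Hars2 (-0.47 ± 0.11 and -0.66 ± 0.12, 0.00606 and 0.000998) and Pars2 (-0.73 ± 0.27 and -0.99 ± 0.28, 0.0481 and 0.0194) fell in both. Yars2 rose in wild types (0.29 ± 0.11, adjusted p = 0.0481). The wild-type calls of Pars2 and Yars2 were lost without any 1 of 12 and of 11 libraries, with adjusted p up to 0.144 and 0.111 (without 22 °C replicate 2 for Pars2 and without 6 °C replicate 3 for Yars2), so that 2 of 17 passed. In knockouts the Pars2 call was lost without 22 °C replicate 1 (0.0576), 2 (0.0598) or 3 (0.0651) or 6 °C replicate 4 (0.0527). In the cytosolic list 2 of 11 passed in wild types without wild-type 6 °C replicate 4 or without knockout 22 °C or 6 °C replicate 4, and in knockouts without 6 °C replicate 4. The wild-type count was higher too with DESeq2, in both limma fits and with only the groups compared, and reached at most 4 of 11. The difference between these lists was not tested. The lists were chosen with earlier results of these data known, so these counts cannot show a difference between classes of synthetase.

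**Figure D4:**
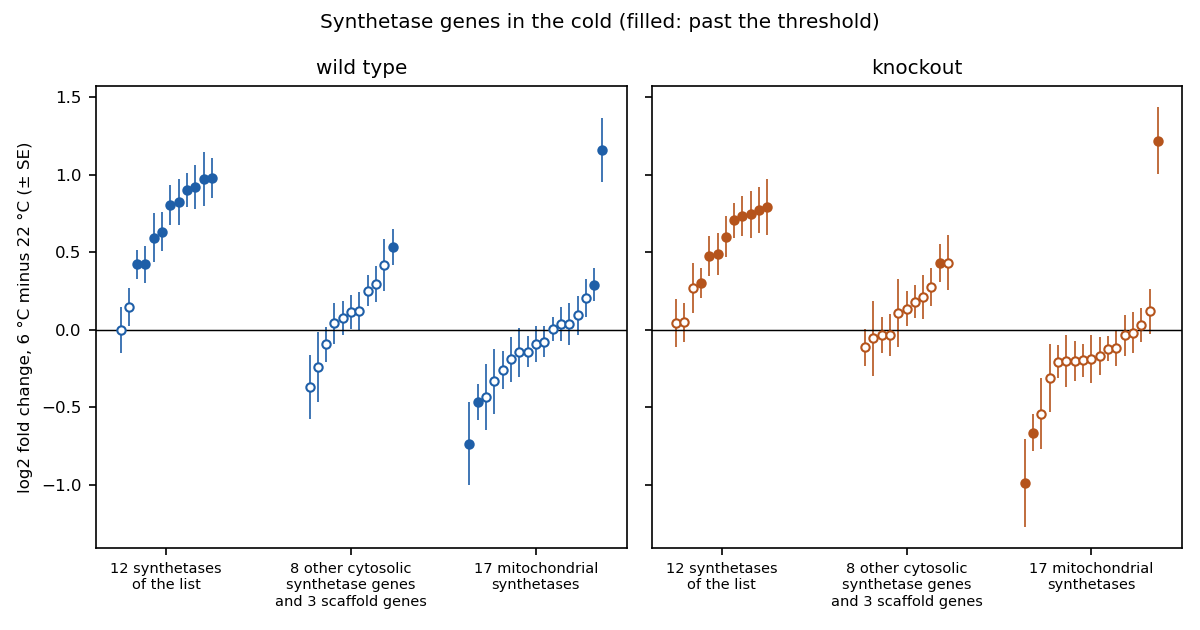
Cold response of synthetase genes by class (x axis: the 12 listed cytosolic genes, 11 further cytosolic synthetase and scaffold genes, 17 mitochondrial genes), with the log2 fold change ± SE on the y axis, in wild types (left) and knockouts (right). Filled points passed the test, and they make up 10 and 9 of the 12 listed genes against 1 of 11 and 4 or 3 of 17 in the other classes. The lists were chosen with earlier results of these data known, and the difference between them was not tested.

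Several genes were uneven between mice of the same group, and these 3 were chosen for description after their values were seen. Trib3, whose pseudokinase product damps ATF4, was 1.77, 5.37, 1.88 and 2.79 CPM in wild types at 22 °C and 12.9, 2.94, 10.1, 3.51 and 3.21 CPM at 6 °C. Chac1, which encodes a glutathione-degrading enzyme, was 0.507, 2.15, 0.635 and 0.197 CPM and 6.52, 1.08, 4.66, 0.618 and 0.607 CPM. In both genes cold replicates 1 and 3 stood several times above the other cold wild types, which overlapped the warm animals. Slc7a11 showed the same split, at 1.87, 0.031, 1.48, 0.13 and 0.116 CPM at 6 °C against 0, 0.519, 0.121 and 0 CPM at 22 °C. Trib3 had a log2 value of 1.08 ± 0.52 (adjusted p = 0.133) and Chac1 of 1.74 ± 0.81 (adjusted p = 0.12) in wild types, and 0.90 ± 0.53 (0.253) and 1.82 ± 0.86 (0.145) in knockouts. Without wild-type 22 °C replicate 2 both passed in wild types (1.68, adjusted p = 0.0276, and 2.57, adjusted p = 0.0411). Without cold replicates 1 and 3 the values were 0.14 and -0.11. Nupr1, which encodes a stress-induced chromatin protein, split the same cold wild types at 14.3, 7.41, 14.6, 6.6 and 7 CPM, and its log2 value was -0.077 ± 0.25 in wild types and -0.53 ± 0.27 in knockouts (adjusted p = 0.852 and 0.179). Gdf15, too sparse to test, was 0 to 0.154 CPM in warm and 0.0289 to 0.4657 CPM in cold wild types, and Pycr1 was at most 0.358 CPM in any library.

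The unevenness ran across the genes. Cold wild-type replicates 1 and 3 were the 2 highest of the 5 cold wild types in 24 of the 33 tested genes, against 15.2% of all tested genes. Both were females labelled with age 11.14, and no other cold wild type carried that age, so age and these 2 animals cannot be told apart. Their mitochondrial shares were 50.5 and 52.2%, against 43.4 to 49.2% in the other 3. Their library totals were 18410748 and 29039997 counts, against 30647112 to 33663371 in the other 3. The part of depth or mitochondrial share in their member values was not tested. Leaving both out, which was chosen after seeing the data, left 14 genes that rose in wild types, 9 of them synthetases, where 1833 of all tested genes passed in place of 3450. Mthfd2, Sesn2 (0.86, adjusted p = 0.0661), Cebpg (0.178) and Tars (0.096) no longer passed. In cold knockouts, replicates 1 and 4 were the 2 highest in 19 of 33 genes, against 22.9% of all tested genes, and they were a female labelled 11.14 and a male labelled 15.

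Among warm wild types, replicate 2 was the highest of 4 in 28 of 33 genes, against 28.2% of all tested genes. It was the only male and the deepest library of that group. Its level of Ppargc1a, a coactivator that cold induces in brown fat, was 493 CPM, against 92.4 to 116 CPM in the other 3 and 933 to 1430 CPM in cold wild types. The part of sex, depth or its Ppargc1a level in its member values was not tested. Without it, 21 genes rose in wild types. Over all tested genes the wild-type count was 2605 to 3872 when single libraries were left out, against 3450 in the main fit. The median coefficient of variation of the 12 synthetases was 14.4, 15, 8.89 and 8.31% in warm and cold wild types and warm and cold knockouts, against 12.3, 15.9, 15.7 and 19.9% over all tested genes. For the other 21 tested genes it was 26.3, 40.2, 33 and 37.2%. Some of these 21 had few counts over all libraries, down to 171 for Slc7a11 and 222 for Slc7a5. The lowest total among the 12 synthetases was 6993, for Cars. The part of low counts in this spread was not tested.

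**Figure D5:**
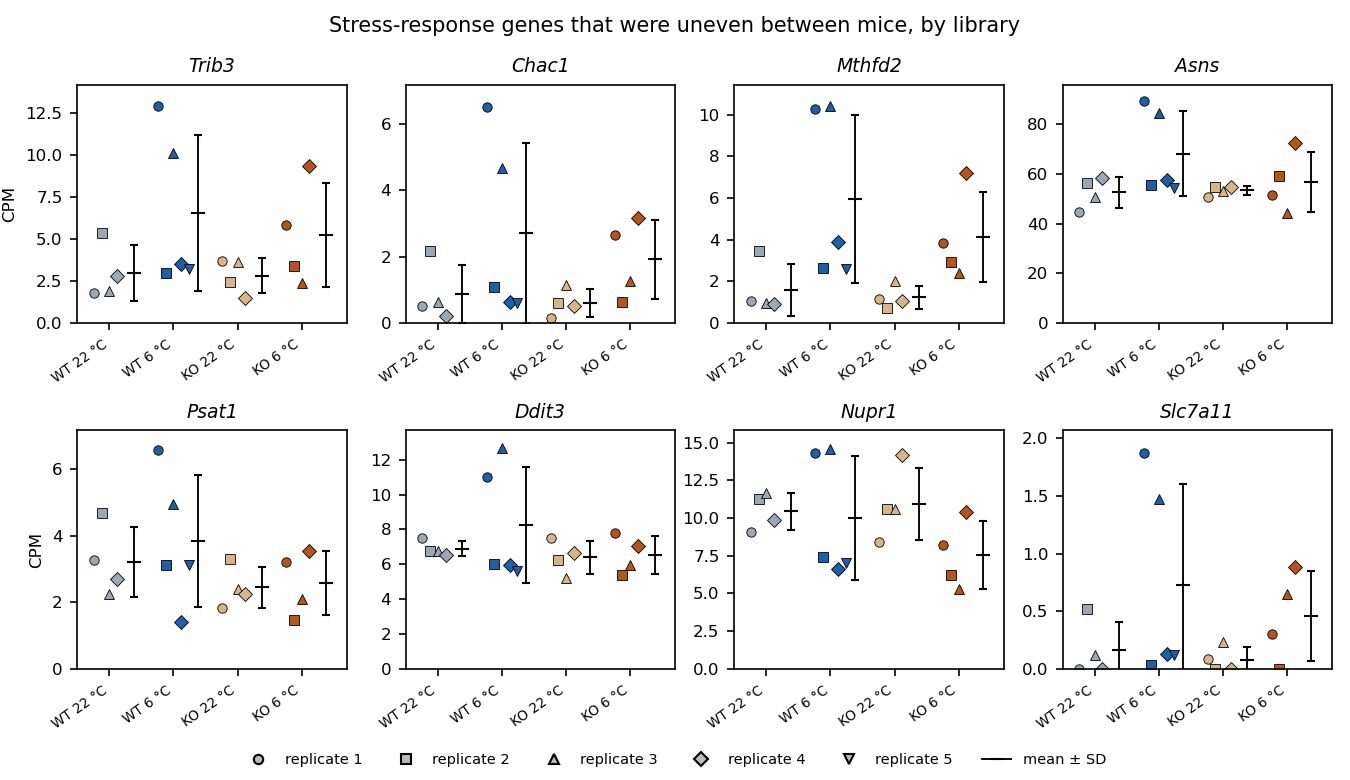
Level in CPM (y axis, linear from 0, lower bars cut at 0) of 8 stress genes in each library, by genotype and temperature (x axis), with replicate numbers as symbols and the mean ± SD as bars. The genes were picked for being uneven between mice. The circle and upward triangle of the cold wild types, replicates 1 and 3, lie above the other 3 cold wild types in every panel. Sesn2, Ddit4 and Atf5, which are not in this figure, did not split this way.

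The element was found both in genes that rose in the cold and in genes that did not pass. Of the 10 tested genes with it, 5 rose in wild types and 4 in knockouts. Of the 17 without it, 10 rose in wild types and 9 in knockouts, Atf4, Slc3a2, Slc7a1 and Sesn2 among them. Of the 6 genes missing from the promoter table, 3 rose in each genotype. Over all tested genes, 14.3% rose in wild types and 11.6% in knockouts. The difference between genes with and without the element was not tested. Among the genes printed above, the synthetase genes Aars, Gars, Iars and Yars rose in both genotypes and Tars in wild types, whereas Asns, Chac1, Slc7a11 and Trib3 did not pass in either.

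In the eIF2 arm upstream of ATF4, 5 of 16 tested genes rose and 2 fell in wild types, and 3 rose and 1 fell in knockouts. That is 43.8% called in wild types and 25% in knockouts, against 27.6% and 21.6% of all tested genes, and the knockout share is near that background. Impact, which encodes an inhibitor of the amino acid sensor kinase GCN2, rose by 1.26 ± 0.20 log2 in wild types (adjusted p = 0.000256) and 1.26 ± 0.21 in knockouts (adjusted p = 0.00046). Its level went from 23.5 ± 5.24 to 55.1 ± 14.2 CPM in wild types and from 18.9 ± 4.5 to 44.7 ± 7.56 CPM in knockouts. Eif2b3, a subunit of the exchange factor that recharges eIF2, rose by 0.80 ± 0.11 and 0.60 ± 0.12 (adjusted p = 0.000126 and 0.00195). Eif2s2, the beta subunit of eIF2, rose in wild types (0.68 ± 0.17, adjusted p = 0.007), and Ppp1r15b, the constitutive counterpart of Ppp1r15a, rose in knockouts (0.61 ± 0.19, adjusted p = 0.0277). The genes that fell, named after their values were seen, were Eif2ak2, which encodes the double-stranded RNA sensor PKR, in both genotypes (-0.44 ± 0.12 and -0.42 ± 0.12) and the mitochondrial protease gene Oma1 in wild types (-0.50 ± 0.14). Without wild-type 22 °C replicate 1, the Oma1 call was lost (adjusted p = 0.057). In that fit 4 of 16 genes passed in wild types in place of 7, so Oma1 was not the only call lost. In knockouts the Eif2ak2 call was lost without 22 °C replicate 1 (0.0886) or 4 (0.0582) or 6 °C replicate 1 (0.0981) or 2 (0.0871), and the Ppp1r15b call without 22 °C replicate 3 (0.0631) or 4 (0.0837) or 6 °C replicate 3 (0.0807). Eif2s2 passed in knockouts as well without wild-type 6 °C replicate 3 (0.0496) or knockout 22 °C (0.0126) or 6 °C replicate 4 (0.0496), and Ppp1r15b in wild types without 6 °C replicate 4 (0.019). Oma1 passed in knockouts without wild-type 6 °C replicate 1 (0.0367) or knockout 6 °C replicate 1 (0.0465). The kinase genes Eif2ak1, Eif2ak3 and Eif2ak4 had log2 values between -0.27 and 0.27 in wild types and did not pass.

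Of 19 other genes known as ATF4 targets or partners, 8 rose and 1 fell in wild types, and 5 rose and 1 fell in knockouts, or 47.4% and 31.6% called against 27.6% and 21.6% of all tested genes. Atf3, an early stress factor, was 4.84, 11.7, 2.21 and 2.4 CPM in wild types at 22 °C and 41.1, 24.8, 50.1, 7.97 and 24.9 CPM at 6 °C, and rose by 2.71 ± 0.53 log2 (adjusted p = 0.00135). In knockouts Atf3 rose by 3.44 ± 0.57 (adjusted p = 0.000482). Got1, the cytosolic aspartate aminotransferase, rose by 1.56 ± 0.24 and 1.45 ± 0.25 (adjusted p = 0.000228 and 0.000646). Jdp2, which encodes an AP-1 repressor, rose by 1.27 ± 0.14 and 0.85 ± 0.15 (adjusted p = 2.19e-05 and 0.000751). The gene that fell was Slc1a5, a glutamine carrier, from 244 ± 42.7 to 104 ± 16.3 CPM in wild types (-1.24 ± 0.19, adjusted p = 0.000255) and by a log2 value of -1.15 ± 0.21 in knockouts (adjusted p = 0.000956). It moved against Slc3a2 and Slc7a1 in both genotypes.

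Levels per gene length, which the authors' deposited RPKM values give, placed Atf4 first among the 35 genes. The mean of the 4 group means was 66.6 RPKM for Atf4, 34 for Atf5, 33.2 for Gars, 29.3 for Slc3a2 and 27.2 for Nars. Atf4 was 46.8 RPKM in warm and 102 in cold wild types, and 28.4 and 89 in warm and cold knockouts. Slc7a1, which had the steepest called change, stood at 0.33 RPKM in warm and 1.05 in cold wild types. Trib3, Chac1, Mthfd2, Psat1 and Phgdh averaged between 0.49 and 2.05 RPKM, and Slc7a11 was last with 0.025.

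Loss of Noct was compared with wild type at each temperature, which asks whether the programme depends on the genotype. Noct itself was lower in knockouts, by -3.57 ± 0.53 log2 at 22 °C (adjusted p = 0.02) and -4.11 ± 0.54 at 6 °C (adjusted p = 0.00218). The 22 °C call was lost without wild-type replicate 2 (0.19) or 4 (0.0512), without knockout replicate 1 (0.289) or 2 (0.0695), and with the replicate number as a block (0.239 with sex, 0.0587 without). None of the 33 genes passed at 22 °C or at 6 °C in edgeR's quasi-likelihood test, where 0.016% and 0.04% of all tested genes passed. With DESeq2 and with limma on log2 RPKM the count was 0 as well. At an unadjusted p below 0.05 there were 3 genes at 22 °C and 1 at 6 °C. Over all 12486 tested genes the counts were 486 and 393, and the 6 °C count of members is near that share.

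The 3 genes at 22 °C were Atf4, Slc3a2 and Ppp1r15a, and each was lower in every knockout than in every wild type, where 1.93% of all tested genes were separated that way. Atf4 was 61.6 to 93.4 CPM in wild types and 39.1 to 59.4 CPM in knockouts, a log2 difference of -0.63 ± 0.19 (edgeR adjusted p = 0.998). Slc3a2 was 44 to 80.9 CPM and 18.7 to 43.2 CPM, a difference of -0.85 ± 0.25 (adjusted p = 0.998) that was -0.53 without wild-type replicate 2. Ppp1r15a was 9.12 to 11 CPM and 3.37 to 9.09 CPM, a difference of -0.48 ± 0.23 (adjusted p = 0.998) that was -0.29 without knockout replicate 4. The gap between the groups was under 1 CPM for Slc3a2 and Ppp1r15a and about 2 CPM for Atf4. The gene at 6 °C was Sars (-0.30 ± 0.12, adjusted p = 0.999), and its groups overlapped. Over the 33 genes the median difference was -0.06 at 22 °C and -0.24 at 6 °C, with 24 and 26 genes lower in knockouts. Over all 12486 tested genes the medians were -0.002 and -0.001, with 6281 and 6272 genes lower. The members' direction at 22 °C turned without wild-type 22 °C replicate 2 (median 0.13), which also brought their 6 °C median to -0.10. With only the groups compared in the fit the medians were -0.16 and -0.04, and without cold wild-type replicates 1 and 3 the 6 °C median was -0.04.

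Of the wild types 2 of 9 were male, against 6 of 8 knockouts. Sex was a term of the model. At each temperature both sexes had a single animal in 1 of the genotypes, which is too few for a comparison within a sex. The cold responses themselves differed between genotypes for none of the 33 genes in edgeR's test, DESeq2 or limma. Of all tested genes 0.00801% passed in edgeR. At an unadjusted edgeR p below 0.05 there were 0 members, against 310 of all 12486 tested genes. The log2 differences (knockout minus wild type) ran from -0.49 for Aldh18a1 to 0.75 for Phgdh. For Atf4 the difference was 0.36 ± 0.25, for Slc3a2 0.56 ± 0.33, for Slc7a1 0.55 ± 0.62 and for Ppp1r15a 0.48 ± 0.29, and for the 12 synthetases it lay between -0.32 and 0.053. An adjusted p of 1 with errors of this size does not show that the genotypes responded alike.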

How the data were processed

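Counts and RPKM values were deposited by the authors. Raw counts of reads were given for each gene symbol, and RPKM values were those counts scaled to gene length and library total (relative spread of the implied length 3.03e-15). The submitters' processing notes name STAR, HTSeq, mm10 and GRCm38.p6. Their versions, the annotation and the strand setting are not given in the sources used here. Groups came from the labels, replicates are different animals, and 0 per-sample columns were unassigned.

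The counts were fitted with edgeR 4.0.16 in R 4.3.3. After filterByExpr and TMM scaling, 1 quasi-likelihood model held all 17 libraries with a term for each group and one for labelled sex (12 residual degrees of freedom). P values were adjusted by Benjamini-Hochberg over 12486 genes with a threshold of 0.05, and the procedure was tested on simulated data. The SE of a log2 fold change is its size divided by the square root of the F statistic. Alternatives used DESeq2 1.42.0 and limma 3.58.1 among others. The members and gene lists were chosen with earlier results of these data known. Members past the threshold are given in full, with up to 4 passing genes of each other list by size of change. Promoters came from RefSeq and gene positions from GENCODE vM21. For 1 gene of the other lists, its result and a count that rests on it are not reported here.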

Additional observations from a re-analysis of the deposited data

Results flagged for a closer look

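Over the 35 genes and 4 groups, 140 sets of 4 or 5 libraries were tested for a single library far from the others of its group. The test flagged 11 (7.86%), and chance flags about 1 in 20. The transporter genes and Mthfd2 gave 4 of these in the same animal, wild-type 22 °C replicate 2. There Mthfd2 was 3.46 CPM (others 0.92 to 1.04), Slc3a2 80.9 CPM (44 to 50.2), Slc7a1 7.62 CPM (1.77 to 2.43) and Slc7a5 0.962 CPM (0.177 to 0.263).

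Among warm knockouts, replicate 4 was highest for Gars at 99.5 CPM (others 89.7 to 90.8) and Lars at 24.4 CPM (18.5 to 19.3), and lowest for Mars at 23.1 CPM (30.3 to 31.7). Replicate 3 of that group was lowest for Cebpg at 60.4 CPM (69.8 to 71.4), and its Gdf15 value of 0.0382 CPM was 1 count where the others had 0. In cold wild types replicate 3 was lowest for Mars at 25.1 CPM (30.1 to 32.1). In cold knockouts replicate 1 was lowest for Eprs at 140 CPM (160 to 163).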

How the results depend on the processing

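The number of genes that passed the cold test stayed within 1.5 times of its main value in every alternative, with 1 exception. In wild types it ran from 15 to 21 when single libraries were left out and was 14 without cold replicates 1 and 3, which was added after seeing the data. In knockouts it ran from 13 to 16 over single libraries left out. The exception was knockout males alone, where 8 genes passed. That fit holds 3 animals per group and tested 11927 genes. The knockout count over all tested genes also dropped by more than 1.5 times there and with only the groups compared. Its lowest value was 740, against 2697 in the main fit. Over all tested genes, fits with single libraries left out gave 2605 to 3872 in wild types and 1961 to 2834 in knockouts. The genotype contrasts and the difference of cold responses had 0 genes past the threshold in every alternative, including each library left out. The calls of 12 genes in wild types (Atf4, Slc3a2, Slc7a1, Ppp1r15a, Aars, Cars, Eprs, Iars, Nars, Sars, Tars and Yars) and of 8 in knockouts (Atf4, Slc3a2, Slc7a1, Ppp1r15a, Eprs, Iars, Nars and Sars) held in every alternative, apart from Tars without cold wild-type replicates 1 and 3 (adjusted p = 0.096). No called value changed its direction. For genes of the other lists, the losses named are mainly those with single libraries left out. Other fits lost some of their calls as well. Of 981 values for uncalled genes 76 changed sign, and none of these passed.

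The labels do not state that replicate numbers pair animals. Same-numbered libraries correlated in their deviations from the group means with r from -0.43 to 0.51 (median 0.05), and 11 of 24 pairs exceeded 0.1. Differently numbered libraries of different groups had r from -0.497 to 0.572 (median -0.046), with 29 of 84 pairs above 0.1. These ranges overlap, so they cannot decide whether the numbers pair animals. With the replicate block and sex, 18 genes passed in wild types and 14 in knockouts, and without sex 19 and 14. In these fits the counts over all tested genes stayed within 1.5 times of their main values, 3450 and 2697. Low counts, 171 over all libraries for Slc7a11 and 222 for Slc7a5, limit what could be detected for those genes.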

Other observations

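Of 13 tested genes of serine and one-carbon metabolism outside the programme, 1 rose and 2 fell in wild types in the cold, or 23.1% called, near the 27.6% of all tested genes. Mthfd1l, the mitochondrial enzyme that releases formate, rose in wild types (1.49 ± 0.38 log2, edgeR adjusted p = 0.00794), and its value in knockouts was 0.85 ± 0.40 (0.144). Amt, of the glycine cleavage system, fell in wild types (-0.98 ± 0.27, adjusted p = 0.0127). Mthfd1 fell in wild types by 0.30 ± 0.11 log2 (adjusted p = 0.0486), and without single libraries its adjusted p reached 0.201 (22 °C replicate 4), with the call lost in 14 of 17 such fits.

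Fgf21, the hormone gene that ATF4 drives in stressed brown fat, was looked at after its values were seen. It was 0.177, 1.67, 0.0302 and 0.197 CPM in wild types at 22 °C and 7.31, 1.30, 4.58, 0.488 and 0.318 CPM at 6 °C. Cold replicates 1 and 3 were the highest, as they were for Trib3 and Chac1. The log2 value was 2.61 ± 1.04 (adjusted p = 0.0697) in wild types and 2.25 ± 1.10 (0.16) in knockouts. It passed in wild types without 22 °C replicate 2 (0.0123), without 6 °C replicate 2 (0.0467), 4 (0.0458) or 5 (0.0452), and without knockout 6 °C replicate 1 (0.0462). Fgf21 passed in wild types with DESeq2 (adjusted p = 0.018) and with edgeR in wild-type females alone (0.0241) as well.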
